A study of Homo sapiens with 208 samples.

Results

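The late response of the gefitinib-resistant line PC9M2 to EGF was examined between 8 and 24 h after EGF addition. Its members are the arrays that the labels assign to the resistant line, with EGF and no gefitinib or with no treatment, at the 17 time points in that range, which gives 34 arrays of a series of 8 courses with 26 arrays each. PC9, a line from a human lung adenocarcinoma, carries an activating deletion in the kinase domain of EGFR. PC9M2, which the labels name PC9GRM2, was derived from it by culture with a low amount of gefitinib, an inhibitor of the EGFR kinase, and is 1 resistant line of several, so that a property of the line and a property of resistance cannot be told apart. All cells were starved for 48 h. The treated course received EGF at 100 ng/ml at 0 h and the control course received nothing. The same 2 courses in PC9, and in PC9M2 that received 0.5 μM gefitinib from 2 h before EGF, were used for comparison.

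EGF binds EGFR, a receptor tyrosine kinase that dimerizes and signals through RAS and ERK and through PI3K and AKT. ERK signaling induces immediate-early transcription factors within minutes, then feedback phosphatases and Sprouty proteins that dampen it, and later genes of adhesion, matrix remodeling and differentiation in epithelial cells. In lung adenocarcinoma with an activating EGFR mutation the receptor signals without added ligand, and gefitinib blocks its kinase.

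Each course has 1 array per time point, so the 17 time points took the place of replicates. The p-values therefore measure the spread between time points of a single course per treatment and not the spread between cultures. All values are log2 signals of one-colour arrays after quantile normalization, and a difference is EGF minus no treatment at the same time point. A gene was called when limma's moderated test of these 17 differences, two-sided, gave a Benjamini-Hochberg adjusted p under 0.05 over the 13261 genes tested. On every slide the untreated array had position 1 and the EGF array position 2, so that treatment and slide position cannot be told apart. The epithelial marker genes were well above background on all late PC9M2 arrays (7 of 7 genes), and PTPRC, KDR and the lung lineage factor NKX2-1 were so on 0 arrays. The 5 fibroblast markers measured were well above background on 0 to 2 of 17 arrays of either group. PECAM1, an endothelial marker, was measured on all of these arrays and fell by 0.46 with EGF (adjusted p = 0.0126), while VWF was measured on all and CDH5 on 3 EGF and 4 untreated arrays. The part of PECAM1 signal in other differences was not tested. The untreated array at 11 h stood apart. Its SD over genes from its neighbours in time was 1.05, against 0.298 to 0.603 for the other late untreated arrays. For the tests that used this pair, counts over all genes are given with and without it. List counts are given without it only for some lists.

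Many genes differed between the late EGF and untreated arrays of PC9M2, most of them by small amounts. Of the 13261 genes, 989 were called (7.46%), with 476 higher (3.59%) and 513 lower (3.87%), and 2742 had an unadjusted p under 0.05. Without the 11 h pair, 1702 genes were called, 805 higher and 897 lower, and 981 of the 989 genes were among them. Of the 989 genes, 14 changed by at least 2-fold and 97 by at least 1.5-fold. The median absolute difference over all genes tested was 0.09. Among the called genes, 172 had the same sign at all pairs, and 961 kept their sign in each of 3 windows of 8 to 12, 13 to 18 and 19 to 24 h. The genes were called on these same pairs, which favours such agreement, so these counts are a description and no test. A linear trend of the difference over 8 to 24 h was called for 0 genes (lowest adjusted p = 0.0592, 842 genes at an unadjusted p under 0.05, limma), or for 3 genes without the 11 h pair.

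At 0 h, on arrays with the same slide positions that the late test did not use, the 476 higher genes had a median difference of -0.06 and the 513 lower genes one of 0.01, against -0.03 over all genes tested. From 0.5 to 7 h these medians were 0.17 and -0.15, and from 8 to 24 h they were 0.32 and -0.29. Since the genes were chosen for their late difference, the choice favours a larger late than early median, which is no test of a change in time.

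DCLK1, MMP1 and TNFRSF11B had the largest mean rises among the genes named by the rule. DCLK1, a microtubule-associated kinase of the doublecortin family, had signals of 5.18, 6.51 and 8.10 (lowest, median and highest of 17 arrays) without treatment and of 6.62, 8.28 and 9.02 with EGF. The ranges overlapped, but EGF was higher at all 17 time points. The mean difference was 1.74 (SE 0.17, adjusted p = 2.19e-06), or 3.34-fold, and it was 1.73, 1.22 and 2.27 in the 3 successive windows. A second probe for DCLK1 was well above background on 0 arrays.

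MMP1, the interstitial collagenase that cleaves fibrillar collagen, had signals of 4.04, 4.79 and 5.46 without treatment and of 5.85, 6.48 and 6.94 with EGF. The 2 groups did not overlap. Over all genes tested this held for 2 genes, MMP1 and HSD3B1. MMP1 rose by 1.69 (SE 0.10, adjusted p = 7.25e-09), or 3.23-fold, and since it was well above background on 11 of the 17 untreated arrays, the lower level lay partly near background. HSD3B1, an enzyme of steroid hormone synthesis, ran from 8.69 to 10.38 without treatment (median 9.91) and from 10.65 to 11.08 with EGF (median 10.93). It rose by 1.03 (SE 0.09, 16 of 16 pairs, adjusted p = 2.10e-06). HSD3B2 is a close paralog, and the probe may read both.

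**Figure D1:**
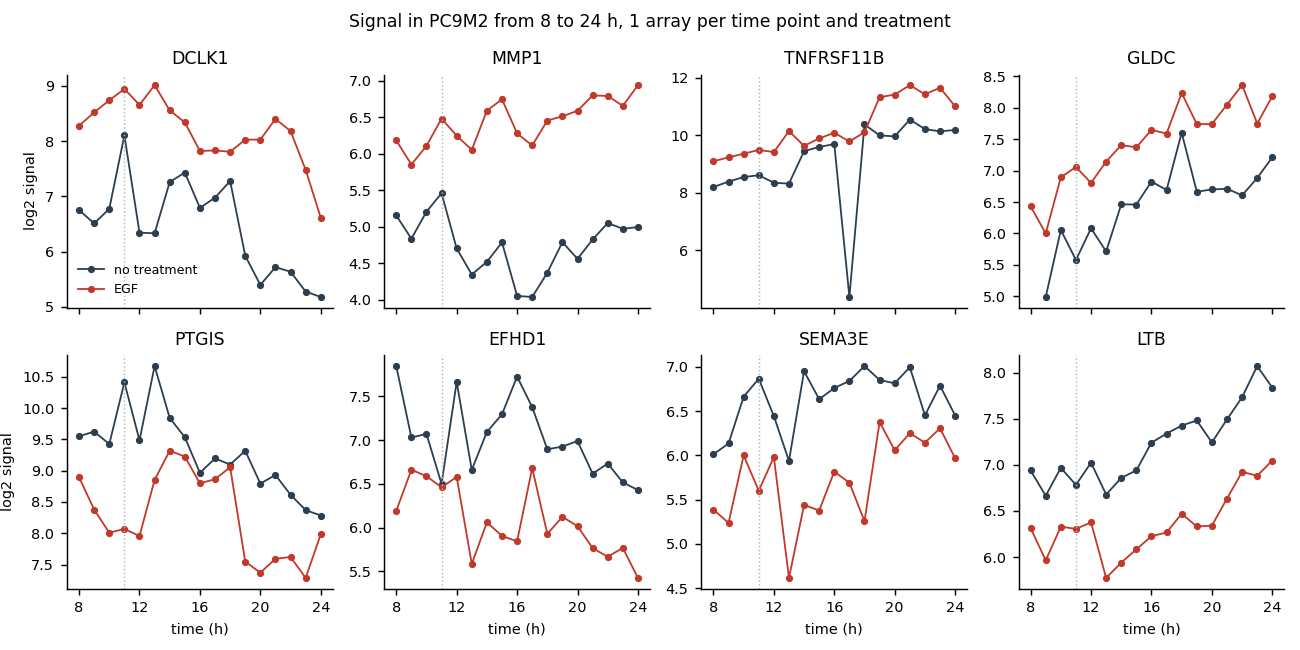
Log2 normalized signal against time from 8 to 24 h for the 4 genes with the largest rise and the 4 with the largest fall in PC9M2, with 1 array per point, without treatment or with EGF. The dotted line marks 11 h, and in MMP1 the EGF points, from 5.85 to 6.94, all lie above the untreated points, from 4.04 to 5.46.

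Further secreted or receptor genes stood among the rises. TNFRSF11B, which encodes osteoprotegerin, a decoy receptor for RANKL, had signals of 4.38, 9.60 and 10.55 without treatment and of 9.10, 10.09 and 11.75 with EGF. The untreated array at 17 h was far below the other 16. TNFRSF11B rose by 1.17 (SE 0.27, 16 of 17 pairs, adjusted p = 0.0113) with that pair and by 0.90 (adjusted p = 0.000267) without it. IL1RL1, the ST2 receptor of the interleukin-1 receptor family, ran from 6.25 to 8.92 without treatment (median 8.04) and from 8.20 to 9.91 with EGF (median 8.88). Its ranges overlapped, and it rose by 1.03 (SE 0.19, 16 of 17 pairs, adjusted p = 0.00209). The window means of IL1RL1 were 1.03, 1.68 and 0.38. PTHLH, the parathyroid hormone-related protein, ran from 6.76 to 8.54 without treatment and from 8.11 to 9.20 with EGF. Its ranges overlapped too, and it rose by 1.00 (SE 0.10, 17 of 17 pairs, adjusted p = 3.51e-06).

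GLDC, the decarboxylase of the mitochondrial glycine cleavage system, had signals of 4.99, 6.64 and 7.60 without treatment and of 6.00, 7.59 and 8.36 with EGF. The ranges overlapped over most of their length, and every pair was higher with EGF. GLDC rose by 1.05 (SE 0.08, 16 of 16 pairs, adjusted p = 1.49e-07). HAS3, a hyaluronan synthase, rose by 0.90 at 17 of 17 pairs, and CISH, a cytokine-inducible inhibitor of the SOCS family, by 0.96 at 17 of 17 pairs. The second probe for CISH differed by 0.12. RNF182, an E3 ubiquitin ligase gene, rose by 0.90, SPTSSB, which encodes a small subunit of serine palmitoyltransferase, by 0.87, and MIR155HG, the host transcript of microRNA miR-155, by 0.84, each at 16 of 17 pairs. These 5 had adjusted p-values from 1.49e-07 to 0.000588.

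PTGIS, EFHD1 and SEMA3E had the largest mean falls among the genes named by the rule. PTGIS, prostacyclin synthase, had signals of 8.28, 9.32 and 10.67 without treatment and of 7.29, 8.07 and 9.32 with EGF. The ranges overlapped, and EGF was lower at all 17 pairs. PTGIS fell by 1.02 (SE 0.15, adjusted p = 0.000282), with window means of -1.44, -0.53 and -1.15. EFHD1, a mitochondrial calcium-binding protein gene, ran from 6.43 to 7.84 without treatment (median 6.99) and from 5.43 to 6.68 with EGF (median 6.02). It fell by 0.95 (SE 0.10, 17 of 17 pairs, adjusted p = 1.06e-05), and its second probe gave -0.85.

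LTB, which encodes lymphotoxin beta, had signals of 6.66, 7.24 and 8.07 without treatment and of 5.77, 6.33 and 7.05 with EGF. The ranges overlapped slightly, and all 17 pairs were lower. LTB fell by 0.85 (SE 0.05, adjusted p = 7.25e-09), with the smallest standard error of the 24 genes described. SEMA3E, a secreted semaphorin, ran from 5.94 to 7.01 without treatment and from 4.62 to 6.38 with EGF. The ranges overlapped in part, and it fell by 0.89 (SE 0.10, 17 of 17 pairs, adjusted p = 1.31e-05). SEMA5B, a membrane semaphorin, fell by 0.75 (SE 0.16, 16 of 17 pairs, adjusted p = 0.00669), with a difference of -2.67 at its most extreme pair. Its mean was -1.50 in the window of 13 to 18 h, against -0.39 and -0.31 in the other windows.

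KRT4, a keratin of mucosal stratified epithelium, had signals of 9.91, 10.21 and 11.23 without treatment and of 8.92, 9.50 and 10.30 with EGF. The ranges overlapped slightly, and KRT4 fell by 0.80 (SE 0.07, 17 of 17 pairs, adjusted p = 7.06e-07). BBOX1, the enzyme of the last step of carnitine synthesis, fell by 0.82, DRC3, a component of the ciliary nexin-dynein regulatory complex, by 0.79, and FRY, a large protein of the furry family, by 0.71, each at 17 of 17 pairs. RARRES1, a gene induced by retinoids, fell by 0.71, and SLA, a Src-like adaptor gene, by 0.75, each at 16 of 17 pairs. The second probe for SLA gave -0.11. AXIN2, a scaffold of the β-catenin destruction complex that Wnt signaling induces, fell by 0.74 (17 of 17 pairs, adjusted p = 2.37e-06). Its other probe was well above background on 2 untreated and 0 EGF arrays, and with the mean of both probes the difference was -0.36 (adjusted p = 0.17). All 24 genes were called with any single pair left out.

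**Figure D2:**
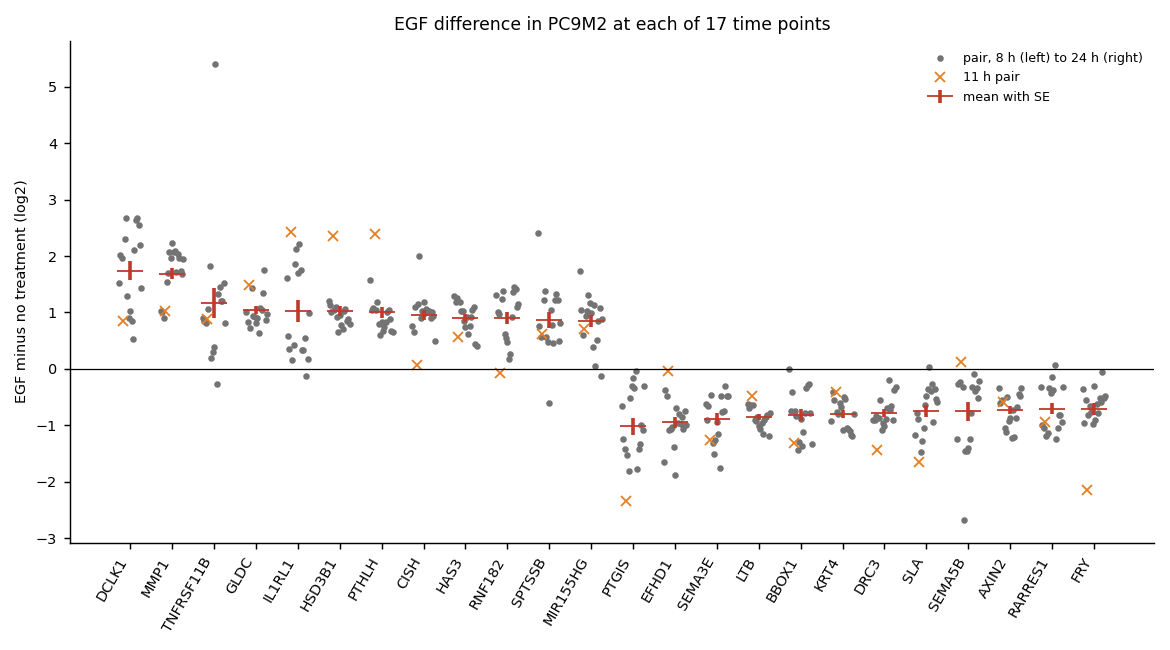
EGF minus no treatment (log2) at each late pair for the 12 genes with the largest rise and the 12 with the largest fall in PC9M2, with times from 8 h at the left to 24 h at the right within each gene. Crosses mark the 11 h pair and the bar is the mean with its SE, from 1.74 for DCLK1 to -1.02 for PTGIS.

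Whether the late response differed from that before 8 h was tested against the mean of the 8 pairs from 0.5 to 7 h, and 10 genes were called (0.0754%), 3 with a higher (0.0226%) and 7 with a lower (0.0528%) late difference, while 1424 had an unadjusted p under 0.05. Without the 11 h pair there were 30. MMP1 differed by 0.42 on average before 8 h and by 1.69 after, a change of 1.27 (SE 0.19, adjusted p = 0.00478). Its difference was 0.16 at 0 h and -0.31 at 0.5 h, reached 1.06 at 5 h and was 2.23 at 16 h. BNIP3, a mitophagy receptor gene, went from -0.06 to 0.44 (change 0.50, adjusted p = 0.0102). SQOR, the mitochondrial sulfide:quinone oxidoreductase, went from 0.12 to 0.57 (change 0.45, adjusted p = 0.0436).

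In the other direction, KRT4 went from -0.07 to -0.80 (change -0.73, adjusted p = 0.00478) and EPHX1, the microsomal epoxide hydrolase, from -0.01 to -0.61 (change -0.60, adjusted p = 0.0150). TGM5, an epidermal transglutaminase, was 0.23 higher on average before 8 h and fell by 0.48 after 8 h (change -0.71, adjusted p = 0.00897). ZDHHC18, a palmitoyltransferase gene, went from 0.38 to -0.16, a late difference that was not called by itself (change -0.55, adjusted p = 0.0244). With the variance inflated for autocorrelation between time points, 0 genes were called in this comparison and 1106 had an unadjusted p under 0.05. DCLK1, in which the mean went from 0.52 to 1.74, was not called (change 1.21, adjusted p = 0.138).

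**Figure D3:**
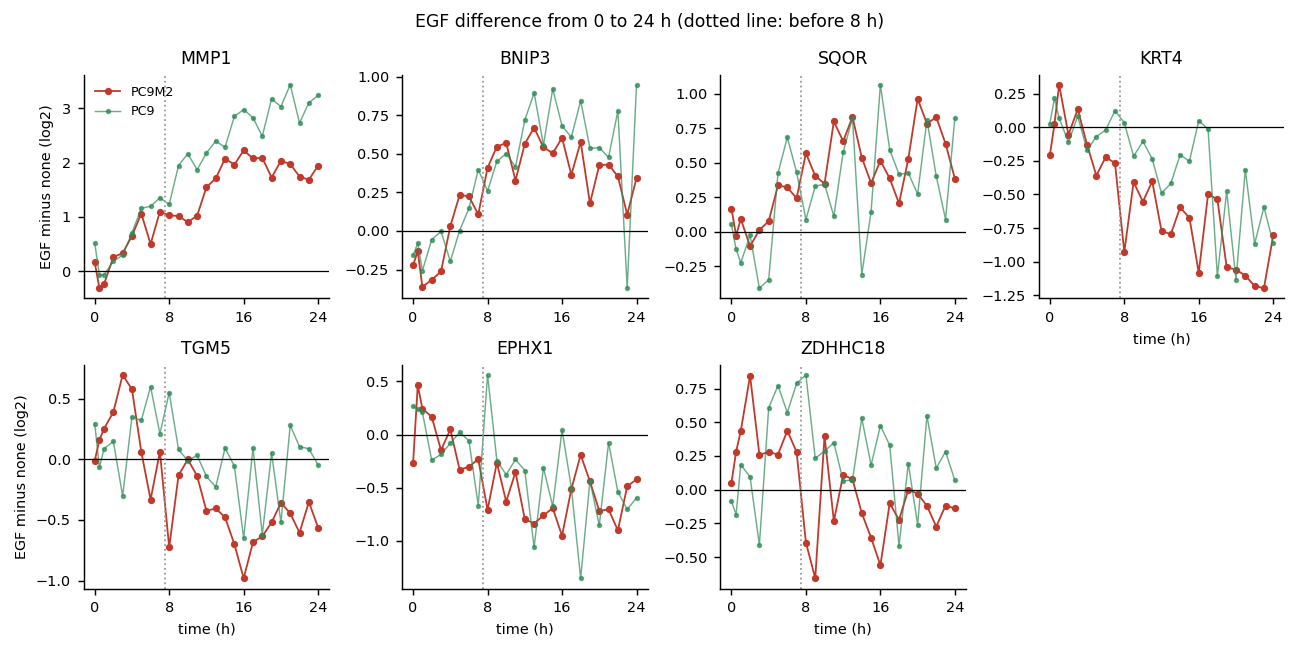
EGF minus no treatment (log2) from 0 to 24 h in PC9M2 and in PC9 for 7 genes whose late difference in PC9M2 departed from that before 8 h (dotted line). The MMP1 difference in PC9M2 goes from 0.16 at 0 h to 1.95 at 24 h, and the KRT4 difference from -0.21 to -0.80.

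The genes called in the ERK and ERBB lists changed by at most 0.61 on the log2 scale. Of 31 ERK-induced feedback and immediate-early genes tested, 4 rose and 1 fell, against 3.59% and 3.87% over all genes, and the median difference was 0.09 against 0.00. With scan day as a random block 2 rose, with the variance inflated for autocorrelation 1 and without the pairing 0, and 0 fell in each. DUSP6, the ERK phosphatase, rose by 0.29 (adjusted p = 0.00179), SPRY4, a Sprouty inhibitor, by 0.25 (adjusted p = 0.0255), EGR3 by 0.32 (adjusted p = 0.0419) and IER3 by 0.15 (adjusted p = 0.0381), while JUNB fell by 0.23 (adjusted p = 0.0443). EGR1 and FOS differed by -0.23 and -0.00 and were not called. Among the 19 ERBB genes, 4 rose and 0 fell. HBEGF, a ligand of EGFR, had signals of 8.56, 9.64 and 10.81 without treatment and of 9.70, 10.48 and 11.47 with EGF. The ranges overlapped, and HBEGF rose by 0.61 (SE 0.07, 16 of 17 pairs, adjusted p = 2.98e-05). AREG, the ligand amphiregulin, rose by 0.47 (adjusted p = 0.000178), LRIG3 by 0.28 (adjusted p = 0.0122) and EGFR itself by 0.27 (adjusted p = 0.0487). The ligands EREG and TGFA differed by 0.27 and 0.13 and were not called, and the median of the list, 0.03, turned to -0.02 under scaling to the 75th percentile.

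Integrins and laminins, which attach epithelial cells to the basement membrane, were the list with the largest share called higher. Of 19 integrin subunits and laminins, 7 rose and 0 fell, where 3.59% and 3.87% of all genes did, which holds for both lists here. The median of the integrin and laminin list was 0.17, and without the 11 h pair its counts stayed 7 and 0. ITGA2, the collagen receptor subunit, had signals of 4.41, 5.55 and 6.25 without treatment and of 5.02, 6.26 and 6.96 with EGF. The ranges overlapped, and it rose by 0.66 (SE 0.09, 16 of 17 pairs, adjusted p = 0.000151). ITGA6, a laminin receptor subunit, rose by 0.46 (adjusted p = 0.00561), and the laminin chains LAMA3 and LAMB3 by 0.43 and 0.17. Among 26 keratin and cornified envelope genes, 6 rose and 1, KRT4, fell. SPRR1B rose by 0.82, SPRR3 by 0.57 and SPRR1A by 0.51 (second probe 0.12), all small proline-rich proteins of the cornified envelope, and KRT6A by 0.71 and KRT6B by 0.62, keratins of activated epithelium whose probes may read each other's transcripts. S100A7 rose by 0.45 and was well above background on 7 untreated and 12 EGF arrays. The median of the keratin list was 0.04, and -0.01 without the 11 h pair, when 7 rose and 3 fell.

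In the metalloproteinase and plasminogen list, 4 of 16 genes rose and 2 fell, where 3.59% and 3.87% of all genes did, which holds for each list of this paragraph. Beside MMP1, MMP7 rose by 0.38, the protease inhibitor SERPINE2 by 0.40 and PLAT, tissue plasminogen activator, by 0.22. The inhibitors of metalloproteinases TIMP3 and TIMP4 fell by 0.24 and 0.23. Of 13 chemokine and cytokine genes, 3 rose. CSF2, which encodes GM-CSF, rose by 0.69 (17 of 17 pairs, adjusted p = 2.98e-05) and IL11 by 0.36 (adjusted p = 0.00564), while CXCL8 rose by 0.89 but was well above background on 7 untreated and 9 EGF arrays. Of 23 TGF-β and BMP genes, 5 rose and 1 fell. INHBA, an activin subunit, rose by 0.50 and FST, which binds activin, by 0.29. ID4 rose by 0.36, SMURF2 by 0.33 and BMP6 by 0.23, and SMAD3 fell by 0.21.

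Interferon-stimulated genes were the list with the most genes called lower. Of 42 tested, 10 fell and 1 rose, against 3.87% and 3.59% over all genes, 10 had a positive difference, and the median was -0.19. Without the 11 h pair 13 fell and 1 rose, and with normexp background correction 8 fell and the median was -0.04. With the variance inflated for autocorrelation 4 fell, from 8 to 15 h alone 2 and without the pairing by time 1. OAS1, an oligoadenylate synthetase that senses double-stranded RNA, had signals of 6.20, 6.93 and 7.94 without treatment and of 6.01, 6.51 and 7.10 with EGF. The ranges overlapped over most of their length, and OAS1 fell by 0.40 (SE 0.06, 17 of 17 pairs, adjusted p = 0.000535). IFIT1, which binds viral RNA, fell by 0.37 (adjusted p = 0.0100), BST2, or tetherin, by 0.32 (adjusted p = 0.0169) and MX1 by 0.19 (adjusted p = 0.0222). SAMD9L fell by 0.64, PSMB8 by 0.24, PARP9 by 0.23, OAS3 by 0.20 (second probe 0.07) and IFI35 by 0.18. CXCL10, a chemokine of T cells, fell by 1.17 (17 of 17 pairs, adjusted p = 1.97e-05), but it was well above background on 13 untreated and 5 EGF arrays. ISG20, an exonuclease gene, was the one that rose, by 0.33 (adjusted p = 0.000161), and ISG15 differed by 0.02 and was not called.

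**Figure D4:**
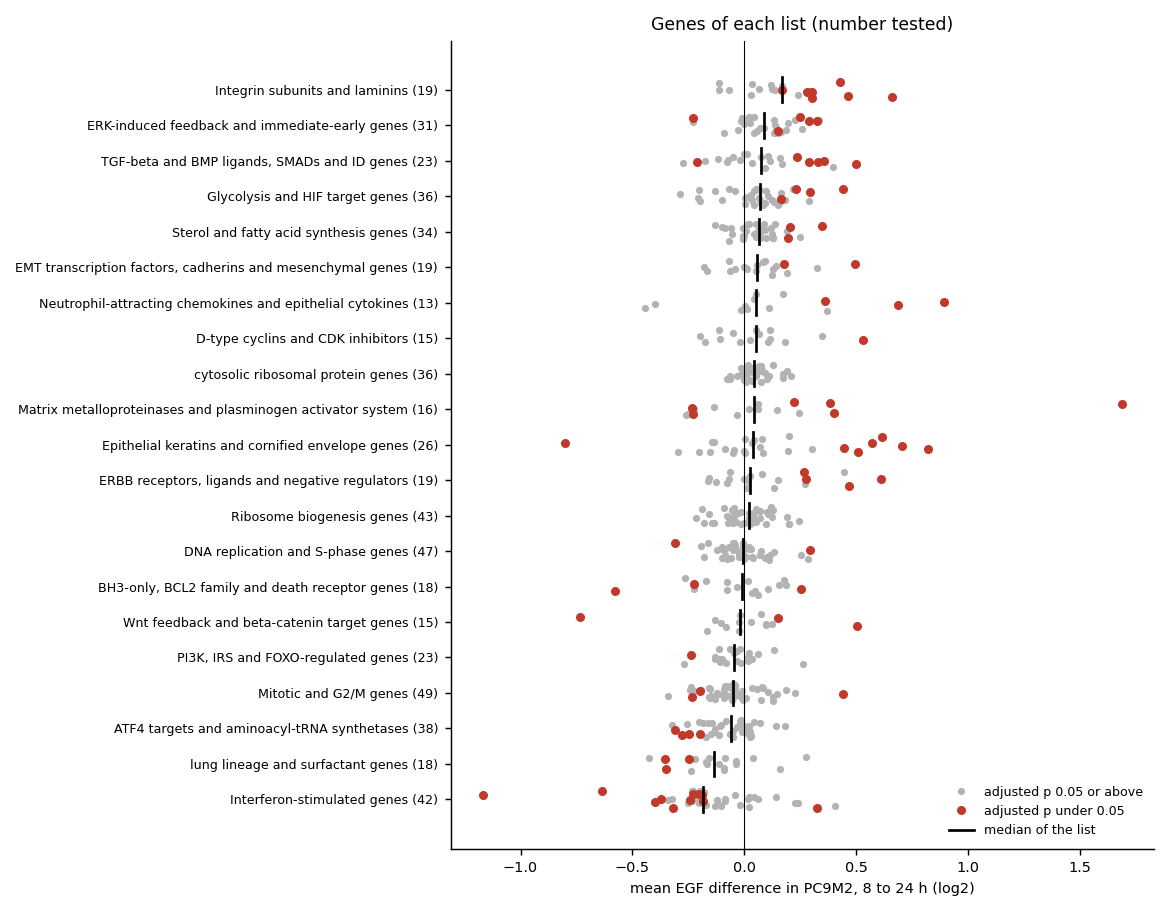
Mean EGF difference in PC9M2 from 8 to 24 h (log2) for every tested gene of 21 lists, with the number tested after each name, genes called by limma in colour and the median of the list as a black line. The interferon-stimulated list has the lowest median, -0.19, and the integrin and laminin list the highest, 0.17.

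Among the proliferation lists, the shares called were near or below the 7.46% over all genes. Of 47 DNA replication genes, CCNE1, cyclin E1, rose by 0.29 (17 of 17 pairs, adjusted p = 0.000216) and E2F2 fell by 0.31 (adjusted p = 0.0131) by the probe used, while its second probe gave 0.11 and with the mean of both probes it was not called. Of 49 mitotic genes, CENPI rose by 0.44, and BIRC5, or survivin, and KIF11 fell by 0.23 and 0.20, the latter with a second probe at -0.06. Among 15 D-type cyclins and CDK inhibitors, CDKN1A, or p21, rose by 0.53 (17 of 17 pairs, adjusted p = 0.0191), and CCND1 differed by -0.11 and was not called. Neither the 43 ribosome biogenesis genes nor the 36 ribosomal protein genes had a gene called, at an overall share of 7.46%. In the BCL2 and death receptor list (18 genes), MCL1, an inhibitor of apoptosis, rose by 0.26 by the probe used, with 0.04 and 0.11 for its other probes and no call with their mean or with the probe of highest mean. In the same list, the death ligand TNFSF10 and the BH3-only gene BAD fell by 0.58 and 0.22. FOXO4 was the 1 gene called among 23 PI3K and FOXO genes and fell by 0.24.

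Over all genes 3.59% rose and 3.87% fell, the shares to set beside each list of this paragraph. In metabolism, 4 of 36 glycolysis and HIF target genes rose and 0 fell. These were BNIP3, ERO1A (0.29), PFKP (0.23) and PDK1 (0.17). Of 34 sterol and fatty acid synthesis genes 3 rose, with LPIN1, a phosphatidate phosphatase, at 0.35. Of 38 ATF4 targets and aminoacyl-tRNA synthetases 4 fell and 0 rose, namely CBS (-0.31), WARS1 (-0.28), MARS1 (-0.25) and ASNS (-0.20), against 3.87% over all genes. In this list 7 fell without the 11 h pair, 2 with scan day as a random block, 1 with autocorrelation and 0 without the pairing. In the Wnt list (15 genes), DKK1, a secreted Wnt inhibitor, rose by 0.51 (adjusted p = 0.000280) and CD44 by 0.15, and AXIN2 fell. LEF1, FZD5, FZD7 and FZD9 differed by -0.17, -0.10, -0.08 and -0.02 and were not called. Of 18 lung lineage genes 3 fell, the mucins MUC1 (-0.35) and MUC4 (-0.35, with -0.10, 0.06 and 0.04 for its other probes) and the club cell gene SCGB1A1 (-0.25), with a list median of -0.14, or -0.03 with normexp background correction. Of 19 EMT genes, VIM, or vimentin, rose by 0.50 and TWIST1 by 0.18, both calls being lost with autocorrelation or without the pairing, and CDH1 differed by 0.01 and was not called.

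Promoters picked from called genes that hold a motif are shown to display the letters that were searched. The 250 bases before the first listed transcription start of each gene come from RefSeq (GRCh38.p14) and read 5′ to 3′ in the sense of the gene. In the first 5, genes that rose, capitals mark the AP-1 motif, TGAGTCA or its complement TGACTCA, bound by FOS and JUN proteins. In the last pair, interferon-stimulated genes that fell, capitals mark the core of the interferon-stimulated response element, GAAANNGAA or its complement.
DCLK1, chr13:36131940-36132189, minus strand: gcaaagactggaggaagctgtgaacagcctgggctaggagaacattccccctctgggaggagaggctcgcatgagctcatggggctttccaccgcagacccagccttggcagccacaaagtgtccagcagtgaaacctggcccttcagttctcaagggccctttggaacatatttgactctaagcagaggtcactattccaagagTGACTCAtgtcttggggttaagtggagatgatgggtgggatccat
MIR155HG, chr21:25561895-25562144, plus strand: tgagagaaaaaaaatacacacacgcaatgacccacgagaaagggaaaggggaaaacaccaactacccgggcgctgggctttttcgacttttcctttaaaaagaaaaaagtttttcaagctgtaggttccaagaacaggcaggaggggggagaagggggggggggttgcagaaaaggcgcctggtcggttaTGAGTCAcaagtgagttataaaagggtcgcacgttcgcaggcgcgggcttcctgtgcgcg
SPRR1B, chr1:153030953-153031202, plus strand: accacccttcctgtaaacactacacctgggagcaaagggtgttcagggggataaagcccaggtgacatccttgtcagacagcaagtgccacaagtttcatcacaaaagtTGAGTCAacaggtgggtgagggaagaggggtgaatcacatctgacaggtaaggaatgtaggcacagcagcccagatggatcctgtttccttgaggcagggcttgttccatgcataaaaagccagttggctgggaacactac
LAMA3, chr18:23872770-23873019, plus strand: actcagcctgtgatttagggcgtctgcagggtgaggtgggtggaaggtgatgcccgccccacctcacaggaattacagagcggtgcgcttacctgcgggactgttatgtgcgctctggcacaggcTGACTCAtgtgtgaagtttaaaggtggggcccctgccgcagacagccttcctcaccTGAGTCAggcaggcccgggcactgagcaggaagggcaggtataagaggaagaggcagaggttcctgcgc
CXCL8, chr4:73740319-73740568, plus strand: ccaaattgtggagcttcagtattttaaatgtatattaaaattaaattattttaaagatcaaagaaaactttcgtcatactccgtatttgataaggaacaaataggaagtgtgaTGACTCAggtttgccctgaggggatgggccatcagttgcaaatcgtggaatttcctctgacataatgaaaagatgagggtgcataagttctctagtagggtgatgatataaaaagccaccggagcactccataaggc
IFIT1, chr10:89392373-89392622, plus strand: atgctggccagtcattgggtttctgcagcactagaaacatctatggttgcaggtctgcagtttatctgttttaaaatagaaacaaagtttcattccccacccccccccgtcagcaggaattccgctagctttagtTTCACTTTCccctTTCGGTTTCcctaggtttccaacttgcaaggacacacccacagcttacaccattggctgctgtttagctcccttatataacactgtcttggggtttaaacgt
OAS3, chr12:112938224-112938473, plus strand: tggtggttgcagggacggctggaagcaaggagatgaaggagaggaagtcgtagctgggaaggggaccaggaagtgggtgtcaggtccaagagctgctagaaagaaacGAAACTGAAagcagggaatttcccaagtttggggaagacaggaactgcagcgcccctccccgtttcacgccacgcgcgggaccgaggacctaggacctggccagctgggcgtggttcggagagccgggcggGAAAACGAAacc

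Both strands of the window from 250 bases before to 50 after the first listed start were searched. The AP-1 motif was in 25 of the 376 called-higher genes with a window (6.65%), in 8 of the 407 called-lower genes (1.97%) and in 357 of all 10688 tested genes with a window (3.34%). Over all 27305 genes with a window the share was 4.92%. The interferon core motif was in 6.12% of the called-higher, 6.63% of the called-lower and 6.45% of all tested genes with a window. Within the interferon-stimulated list it was in 21 of 34 genes (61.8%), and in 5 of the 10 that fell. LAMA3 held 2 AP-1 motifs and IFIT1 and OAS3 held 2 interferon motifs each. An ETS motif, CCGGAAGT, was in 3.99%, 4.42% and 8.21% of these groups, and the E-box CACGTG in 10.6%, 8.60% and 9.81%. AP-1 matches shared bases with another of these motifs in 9 windows of tested genes, and interferon core matches in 1. These shares are descriptions of letters and were not tested. A window was listed for 19 of the 24 genes with the largest changes, and DCLK1 has 3 windows, of which the first is shown.

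Whether EGF acts in the presence of gefitinib was compared in PC9M2 at the same 17 times. The array with EGF and gefitinib had position 3 on each slide and that with gefitinib alone position 4, so that the order of the pair on the slide was the reverse of that without gefitinib, and slide order and treatment cannot be told apart. Under gefitinib, 764 genes were called (5.76%), 350 higher (2.64%) and 414 lower (3.12%) with EGF. Of these, 165 were also called without gefitinib, which is 16.7% of the 989 genes and 21.6% of the 764. In the shared set, the EGF difference had the same sign in both settings for 12 genes and opposite signs for 153, 89 of them higher without and lower with gefitinib. The difference between the 2 EGF effects was called for 1305 genes (9.84%), 618 positive (4.66%) and 687 negative (5.18%), and for 1620 without the 11 h pair.

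DCLK1 had an EGF difference of -0.24 (SE 0.08) under gefitinib, against 1.74 without it, and the 2 effects differed by 1.98 (SE 0.21, adjusted p = 6.79e-06). HSD3B1 fell by 0.58 with EGF under gefitinib (adjusted p = 2.32e-06), where its mean level was 6.84 with gefitinib alone, and the effects differed by 1.62 (SE 0.11, adjusted p = 9.94e-08). KRT6A, which fell by 0.70 under gefitinib, and KRT6C, which fell by 0.68, rose without gefitinib by 0.71 and 0.78 and had effects that differed by 1.41 and 1.45. MMP1 differed by 0.08 under gefitinib, where it was well above background on 4 arrays with gefitinib alone and 2 with both. MIR155HG was so on 2 and 1 of these arrays, RNF182 on 8 and 6, and GLDC on 9 and 11.

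Among genes that fell without gefitinib, SEMA3E rose by 0.30 with EGF under gefitinib (adjusted p = 0.00131), and its effects differed by -1.19 (adjusted p = 3.87e-06). LTB and PTGIS differed by 0.30 and 0.12 under gefitinib and were not called, and their effects differed by -1.16 and -1.14. PTGIS had a mean level of 11.77 with gefitinib alone and one of 11.89 with both. TCF7L1, a transcription factor of the Wnt pathway, was well above background on 12 untreated and 11 EGF arrays, was not called without gefitinib (-0.57, adjusted p = 0.199) and rose by 0.50 under it, and its effects differed by -1.06 (adjusted p = 0.0269). EGR3, which rose without gefitinib, fell by 1.14 under it (adjusted p = 1.30e-05), and so did DUSP6, by 0.49, and AREG, by 0.51. In the ERK list 13 of 31 effects differed, all of them positive, and in the ATF4 list 11 of 38, all negative, against 4.66% positive and 5.18% negative over all genes.

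**Figure D5:**
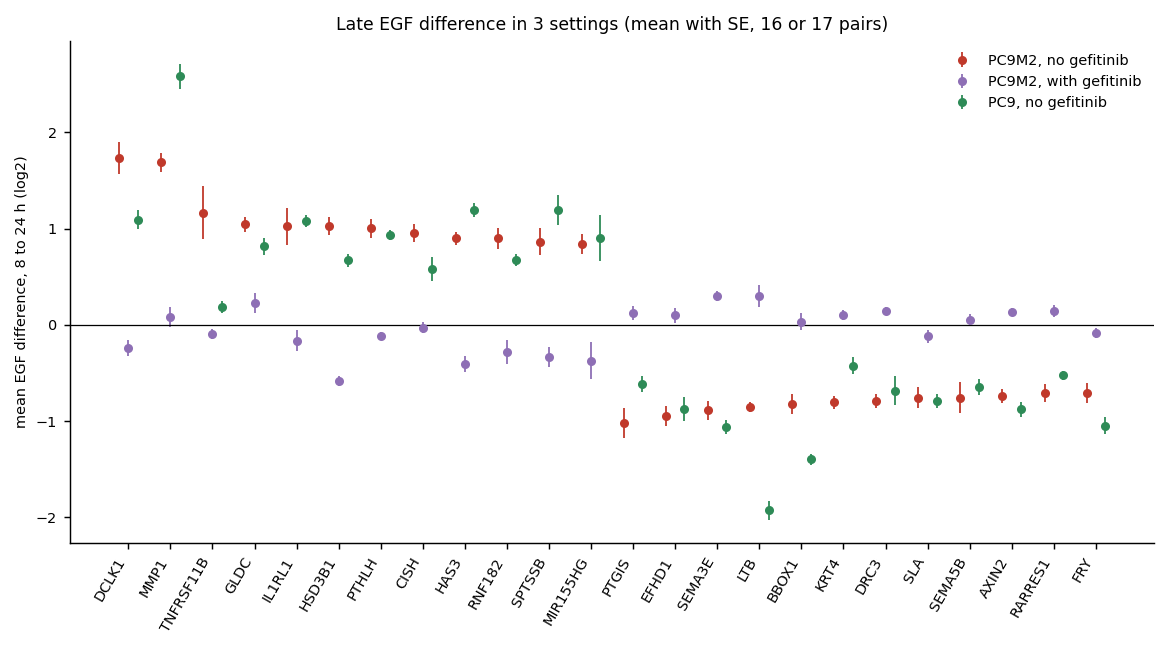
Mean EGF difference from 8 to 24 h (log2, with SE, 17 pairs, or 16 for GLDC and HSD3B1 in PC9M2 without gefitinib and for TNFRSF11B in PC9) of the 24 genes with the largest changes in PC9M2, in PC9M2 without gefitinib, in PC9M2 with gefitinib and in PC9. In PC9 the LTB fall, -1.93, and the MMP1 rise, 2.58, are larger than in PC9M2, and with gefitinib the points lie between -0.58 and 0.30. With gefitinib, MMP1, MIR155HG and RNF182 were well above background on at most 8 of 17 arrays of either group.

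The lines were on separate slides, so line and slide cannot be told apart. The late PC9 arrays with EGF or no treatment had 480 to 1088 saturated features each, and those of PC9M2 had 0. The part of saturation in the differences between the lines was not tested. In parental PC9 without gefitinib, 2761 genes were called at the same times (20.8%), 1186 higher (8.94%) and 1575 lower (11.9%). The EGF effects of the lines differed for 155 genes (1.17%), 77 with a higher value in PC9M2 (0.581%) and 78 with a lower one (0.588%), and for 243 without the 11 h pair. MMP1 rose by 2.58 in PC9 and by 1.69 in PC9M2, a difference of -0.89 (SE 0.10, adjusted p = 6.41e-05). LTB fell by 1.93 in PC9 and by 0.85 in PC9M2, a difference of 1.07 (SE 0.09, adjusted p = 7.11e-06), and its mean untreated level in PC9 was 8.66. RDH16, a retinol dehydrogenase, fell by 1.64 in PC9 and by 0.41 in PC9M2 (difference 1.23, adjusted p = 3.04e-05). BBOX1 fell by 1.40 in PC9 and by 0.82 in PC9M2 (difference 0.58, adjusted p = 0.0078).

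EGR1, SCNN1G and SLC25A29 changed in PC9 and were not called in PC9M2. EGR1, an immediate-early transcription factor, rose by 0.69 in PC9 at 17 of 17 pairs and differed by -0.23 in PC9M2, and the effects differed by -0.92 (adjusted p = 0.000798). SCNN1G, a subunit of the epithelial sodium channel, rose by 1.14 in PC9 and differed by 0.16 in PC9M2 (difference -0.98, adjusted p = 3.04e-05). SLC25A29, a mitochondrial carrier of basic amino acids, fell by 1.23 in PC9 and differed by -0.22 in PC9M2 (difference 1.01, adjusted p = 0.000395). FAM78A fell by 1.09 in PC9 and by 0.29 in PC9M2 (difference 0.80). MUC4, a membrane mucin, rose by 0.75 in PC9 and fell by 0.35 in PC9M2 (difference -1.10, adjusted p = 0.000137), but with the probe of highest mean signal this difference was 0.21. For DCLK1 the rise was 1.09 in PC9 and the difference between the lines was 0.65 (SE 0.23), which was not called (adjusted p = 0.202).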

How the data were processed

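RNA from PC9 and PC9M2 cells was measured on one-colour Agilent arrays, 8 courses of 26 time points with 1 array each. The authors deposited scanner intensities in arbitrary units, made with Feature Extraction 10.5.1.1 per the file headers, background-subtracted and not normalized between arrays. They also deposited a table of intensities, which equals the quantile-normalized values computed here within 0.00201 on the log2 scale. The genome build of the probe design is not given in the sources used here.

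From the deposited intensities, quantile normalization over all arrays and all 45015 features each, a floor of 1 and log2 were applied here. Outlier spots (0.0793% of tested values) were removed. RefSeq accessions gave a symbol for 24794 of 41000 probes. Of 16961 genes, 6040 had over 1 probe, and the probe of highest variance was used. Genes were kept if some course of 26 arrays had 13 or more with this probe well above background, and 3700 were left out as dim. Among the late PC9M2 arrays no feature was saturated. In PC9, SQOR was saturated on 4 EGF arrays and 1 untreated array from 8 to 24 h, and LAMB3 on all. CD44 was so on 14 EGF and 10 untreated arrays, KRT6B on 5 EGF, IER3 on 3 EGF and 2 untreated, and EBP on 1 untreated array.

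Groups came from the labels. EGF and untreated arrays were paired by time point, which the labels give. The deviations of paired arrays from the group means correlated at every time point (0.129 to 0.841, median 0.656). At 10 of the 17 time points the EGF array correlated best with its own untreated array. Paired differences were tested with limma 3.58.1 in R 4.3.3 (two-sided, Benjamini-Hochberg, threshold 0.05). The test functions were checked on simulated differences, drawn independently at each time point with the spread of each gene. That check cannot show how the tests behave with correlated time points or with an array that stands apart. Differences between the early and late pairs, lines and gefitinib courses were tested as contrasts of the differences. The 12 genes per direction with the largest late difference, and 4 per direction for the other tests, are named, measured above background on 9 or more of the 17 late arrays in each group compared and, for the late response, with the same sign at 14 pairs or more. Called list members, and up to 4 others a list, are named beside them, as is PECAM1. The members, gene lists and tests were chosen with earlier results of these data known. Scaling, background correction, probe choice, filter, pairing, autocorrelation, scan day, time spacing and leaving out each pair were tried as alternatives. Figures were drawn with matplotlib 3.10.9. The depth of an array is not a count, and the number of arrays limits the precision.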

Additional observations from a re-analysis of the deposited data

Results flagged for a closer look

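Differences between 2 EGF effects that passed limma's test of the difference itself were singled out. Late against early EGF effects differed for 10 genes in PC9M2, the effects in PC9M2 against PC9 for 155 and the effects without against with gefitinib for 1305. The values late minus early were 1.27 for MMP1, 0.50 for BNIP3, 0.45 for SQOR, -0.73 for KRT4, -0.71 for TGM5, -0.60 for EPHX1 and -0.55 for ZDHHC18. The values PC9M2 minus PC9 were 1.23 for RDH16, 1.07 for LTB, 1.01 for SLC25A29, 0.80 for FAM78A, 0.58 for BBOX1, -1.10 for MUC4, -0.98 for SCNN1G, -0.92 for EGR1 and -0.89 for MMP1. FAM78A fell in both lines. The probes of MUC4 disagree, at -0.35, -0.10, 0.06 and 0.04 for the late effect in PC9M2.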

How the results depend on the processing

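Under other scaling, background correction, probe choice and filters the late count stayed between 852 and 1125, and the methods' t-test gave 984 after Benjamini-Hochberg adjustment. It moved to 143 without the pairing by time (no replicate block), 568 with the variance inflated for autocorrelation, 14 when a change of at least 2-fold was required and 54 from 8 to 15 h alone. Leaving out 1 pair gave 804 (without 21 h) to 1702 genes (without 11 h). With only time points 3 h apart, and so fewer pairs, it was 0 from 8 h (909 at an unadjusted p under 0.05), 82 from 9 h and 0 from 10 h (1025), the last 2 spacings being chosen after seeing the data, as was leaving out the 11 h pair (1702). The 24 genes with the largest late changes kept their direction under each of these in which they were tested. Without the pairing 20 stayed called and AXIN2, MIR155HG, SPTSSB and TNFRSF11B did not, SLA and SEMA5B lost the call with autocorrelation, and all 24 lost it with time points 3 h apart from 8 h or from 10 h and 9 of them with that from 9 h. From 8 to 15 h alone 10 were not called, and from 16 to 24 h alone TNFRSF11B and IL1RL1 were not. Without the pairing, the list counts were 2 higher of 19 integrins and laminins, 2 of 26 keratin and envelope genes, 1 of 19 ERBB genes, 1 of 16 metalloproteinase genes, 1 of 13 cytokines and 0 for the TGF-β, glycolysis and sterol lists.

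The trend over time had 1 gene with normexp, 3 with the probe of highest mean or with genes well above background on every array, 0 to 3 with 1 pair left out and 3 without the 11 h pair. Late against early effects gave 19 genes with normexp, 0 with autocorrelation (1106 at an unadjusted p under 0.05), 1 at 2-fold, 30 without the 11 h pair and 4 (without 2 h) to 43 (without 0.5 h) with 1 pair left out. Of the 7 genes named there, SQOR, TGM5 and ZDHHC18 were not called under scaling to the 75th percentile, SQOR also with no filter on dim genes or scan day as a random block, and each of SQOR and ZDHHC18 with some pair left out. The effects of the lines differed for 265 genes with normexp, 12 unpaired, 100 with autocorrelation, 242 with scan day as a random block, 10 at 2-fold, 0 with time points 3 h apart (992), 243 without the 11 h pair and 93 (without 19 h) to 243 (without 11 h) with 1 pair left out. The MUC4 difference between the lines, -1.10, turned to 0.21 with the probe of highest mean. The effects without and with gefitinib differed for 152 genes unpaired, 838 with autocorrelation, 50 at 2-fold and 0 with time points 3 h apart (1472). Where no value above bears on it, the cause was not tested. Signal near background limits CXCL8, CXCL10, S100A7 and MMP1, and under gefitinib also MIR155HG and RNF182.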

Other observations

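The spike-in RNA probes, which carry no cellular signal, had a mean EGF minus untreated difference of -0.30 over the late PC9M2 pairs (SD 0.66, 10 probes), lower in 12 of 17 pairs, with a range from -1.92 to 1.12. The SD over genes of the pair difference was 1.01 at 11 h, 0.286 to 0.593 at the other late times and 0.379 at 0 h.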
